A study of Mus musculus with 15 samples.

Results

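The growth hormone and insulin-like growth factor (IGF) axis was followed in mouse liver through 10 genes chosen by symbol, with earlier results of these data known. They were the receptor gene Ghr, the transcription factors Stat5a and Stat5b, the feedback inhibitors Socs2 and Cish, the hormone gene Igf1, its carrier Igfals, and the binding proteins Igfbp1, Igfbp2 and Igfbp4. These genes were 10 of the 12393 genes tested and had 22 of the 22690 probe sets of an Affymetrix mouse array.

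Growth hormone from the pituitary binds its receptor on hepatocytes, and the kinase JAK2 then activates STAT5 proteins, which enter the nucleus and raise the transcription of Igf1, Igfals, Socs2 and Cish. SOCS2 and CISH damp the receptor's signal. Liver is the main source of circulating IGF1, which travels bound to IGFBP3 and the acid-labile subunit encoded by Igfals, while other binding proteins hold smaller shares. In rodents the rhythm of growth hormone release also differs between the sexes and sets many differences between male and female liver.

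Liver RNA came from mice labelled as males aged 3 months, with 3 biological replicates and so 3 arrays in each of 5 groups. Z4 mice expressed the mutant Z form of human alpha1-antitrypsin, a secreted protease inhibitor whose Z form misfolds, and drank no doxycycline. Z1 mice carried the same inducible transgene with its expression shut off by doxycycline at 40 µg/mL in the drinking water from conception. M4 mice expressed the wild type M form without doxycycline, and M1 mice carried that transgene shut off by the same doxycycline treatment. WT mice were littermates without a transgene and without doxycycline. The transgene was specific to hepatocytes by the labels, and its own level was not analysed here. Doxycycline and the state of the transgene cannot be told apart in Z4 minus Z1 or in M4 minus M1, and WT mice differed from Z1 and M1 mice in both transgene and doxycycline.

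Values are the deposited signals, linear and in arbitrary units, given in the order of arrays 1, 2 and 3. A log2 change is a difference of group means of log2(signal + 16), with its standard error (SE), and a gene was called where limma's Benjamini-Hochberg adjusted p over all 12393 genes was under 0.05. The number of arrays limits the precision, and no level of one probe set is set against that of another.

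Whole arrays differed between the on groups Z4 and M4, the off groups Z1 and M1, and WT. Median signals were 47.8 to 52.5 in Z4, 32.0 to 32.2 in Z1, 43.9 to 54.9 in M4, 30.4 to 31.3 in M1 and 42.3 to 44.9 in WT, and all genes together shifted by a median log2 change of 0.25 in Z4 minus Z1 and 0.29 in M4 minus M1. Poly-A control probe sets had medians of 2.0 to 5.2 on Z4 and M4 arrays, against 33.8 to 57.9 on the others. Signals for the 5′ end of 18S rRNA were 1830.0 to 2680.7 on Z4 and M4 arrays, against 75.0 to 568.1 on the others. These controls moved with every on minus off comparison and with Z4 and M4 minus WT, and their part in the results was not tested. Arrays labelled M4 1 and 2 went against the label of sex, with Xist, the transcript of the inactive X chromosome, at 1149.2 and 226.0, against 32.6 on M4 3 and at most 74.3 elsewhere. Eif2s3y, a gene on the Y chromosome, read 0.4 and 1.3 on them, against 42.1 on M4 3 and at least 105.3 elsewhere. Of 2 further Y-linked genes, Kdm5d read 12, 11.4 and 23.2 in M4, against at least 43.6 elsewhere, and Uty 4.6, 5.6 and 8.5, against at least 22.8, so M4 3 too was below the other groups for all 3. Arrays M4 2 and 3 stood apart in another way, on some Ghr and Igf1 probe sets and on genes outside the axis, described below. Calls in M4 are thus given with these M4 arrays kept and, by pairs, left out. Hepatocyte markers Alb, Apoa1, Ttr, Tat and Cps1 were all measured, and their summed signal was 30408.1 to 59304.4 over the 15 arrays. That sum lay at 30408.1 to 33008.4 in Z4, 34212.4 to 40412.4 in Z1, 30811.1 to 37646.3 in M4 and 34886.8 to 38714.1 in M1, so all 4 transgenic groups were below the 51755.2 to 59304.4 of WT.

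**Figure D1:**
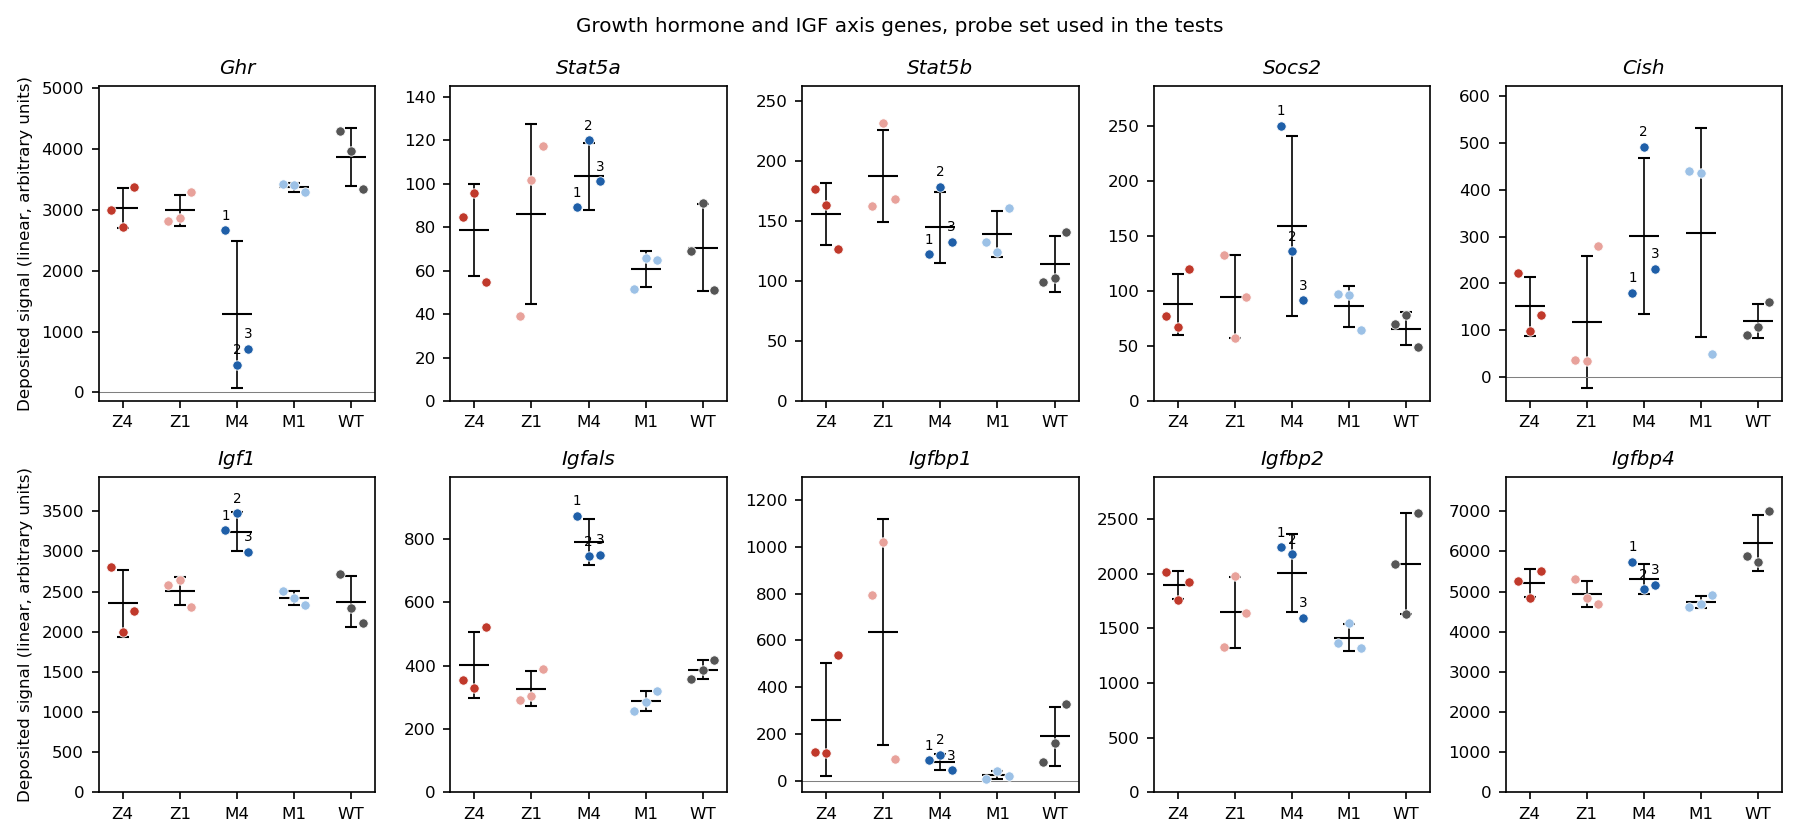
Deposited signal (linear, arbitrary units) of the probe set tested for each of the 10 genes, by group, with 1 point per array, the mean as a line and the SD as bars (n = 3 each). M4 points carry their array number. Igfals is high on all 3 M4 arrays, and Ghr is low on M4 2 and 3.

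Ghr, which encodes the growth hormone receptor, was lower in M4 than in M1 and WT livers, and that difference came with 2 of the 3 M4 arrays. Its signal was 3005.6, 2720.0 and 3373.8 in Z4 and 2823.1, 2870.3 and 3291.6 in Z1. In M4 it was 2670.9, 458.9 and 721.5, against 3424.1, 3406.7 and 3287.1 in M1 and 4297.9, 3965.8 and 3346.5 in WT. M4 1 lay just under the other groups and M4 2 and 3 far below them, while the Z4 and Z1 arrays overlapped. The log2 change was -1.79 in M4 minus M1 (SE 0.42, adjusted p = 0.00308), -1.98 in M4 minus WT (SE 0.42, adjusted p = 0.00508) and 1.63 in Z4 minus M4 (SE 0.42, adjusted p = 0.0405). Without M4 2 and 3 those changes were -0.33, -0.52 and 0.18 and none was called. The call in Z4 minus M4 also ended without any single array other than M4 1 (adjusted p = 0.0524 to 0.172), and that in M4 minus WT in a fit of those groups alone (adjusted p = 0.0777). In Z4 minus Z1 it was 0.02 (adjusted p = 0.980), with a 95% interval of -0.89 to 0.92. Fewer cells of a type and less RNA per cell cannot be told apart in whole liver, here and below.

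The other Ghr probe sets did not share one pattern. Probe set 1451871_a_at read 366.6, 104.9 and 129.3 in M4, against 472.8, 457.7 and 396.0 in M1, and fell by 1.28 (SE 0.33, adjusted p = 0.00565 over all probe sets). As with the tested probe set, M4 2 and 3 were low. Probe set 1451501_a_at read 1547.9, 1361.9 and 1781.0 in M4, against 2246.2, 2246.6 and 2246.1 in M1, and fell by 0.53 (SE 0.15, adjusted p = 0.0109). There M4 3 was the highest of the 3 M4 arrays and lay within the range of WT, at 1651.8 to 2401.9, so a low Ghr signal on M4 3 depended on the probe set read. With M4 2 and 3 left out neither was called (-0.26 and -0.53, adjusted p = 0.475 and 0.0612).

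Stat5a and Stat5b encode the paired transcription factors that carry the receptor's signal, with STAT5B the main one in hepatocytes. Stat5a read 84.9, 96.0 and 55.0 in Z4, 39.2, 101.7 and 117.4 in Z1, 89.1, 120.0 and 101.2 in M4, 51.4, 65.9 and 65.1 in M1, and 69.1, 91.3 and 51.2 in WT. All M4 arrays lay above all M1 arrays, with a log2 change of 0.63 that was not called (SE 0.29, adjusted p = 0.0804). Its second probe set, at 11.2 to 41.5 on all arrays and so near the added constant, was called in Z4 minus Z1 (-0.39, adjusted p = 0.0478), M4 minus WT (0.59, adjusted p = 0.0110) and Z1 minus WT (0.78, adjusted p = 0.00265). With either M4 pair left out its call in M4 minus WT ended (adjusted p = 0.149 and 0.110).

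Stat5b read 176.6, 163.4 and 126.8 in Z4, 161.9, 231.3 and 168.0 in Z1, 122.3, 178.2 and 132.6 in M4, 132.2, 123.9 and 160.6 in M1, and 99.0, 102.5 and 140.8 in WT. All Z1 arrays lay above all WT arrays, and Stat5b was called there (log2 change 0.64, SE 0.19, adjusted p = 0.0244). That call ended without Z1 2, WT 1 or WT 2 (adjusted p = 0.107, 0.0787 and 0.0754). In M4 minus M1 its change was 0.04 on this probe set, whereas its other probe set rose by 0.70 (SE 0.15, adjusted p = 0.00166). Probe set 1422102_a_at read 65.7, 82.5 and 93.8 in M4, 52.2, 39.9 and 38.0 in M1, and 40.4, 43.0 and 54.8 in WT, and was also called in M4 minus WT (0.64, adjusted p = 0.00781). Both calls held with M4 1 and 2 left out (0.89 and 0.83) and ended with M4 2 and 3 left out (0.47 and 0.40, adjusted p = 0.0801 and 0.206).

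**Figure D2:**
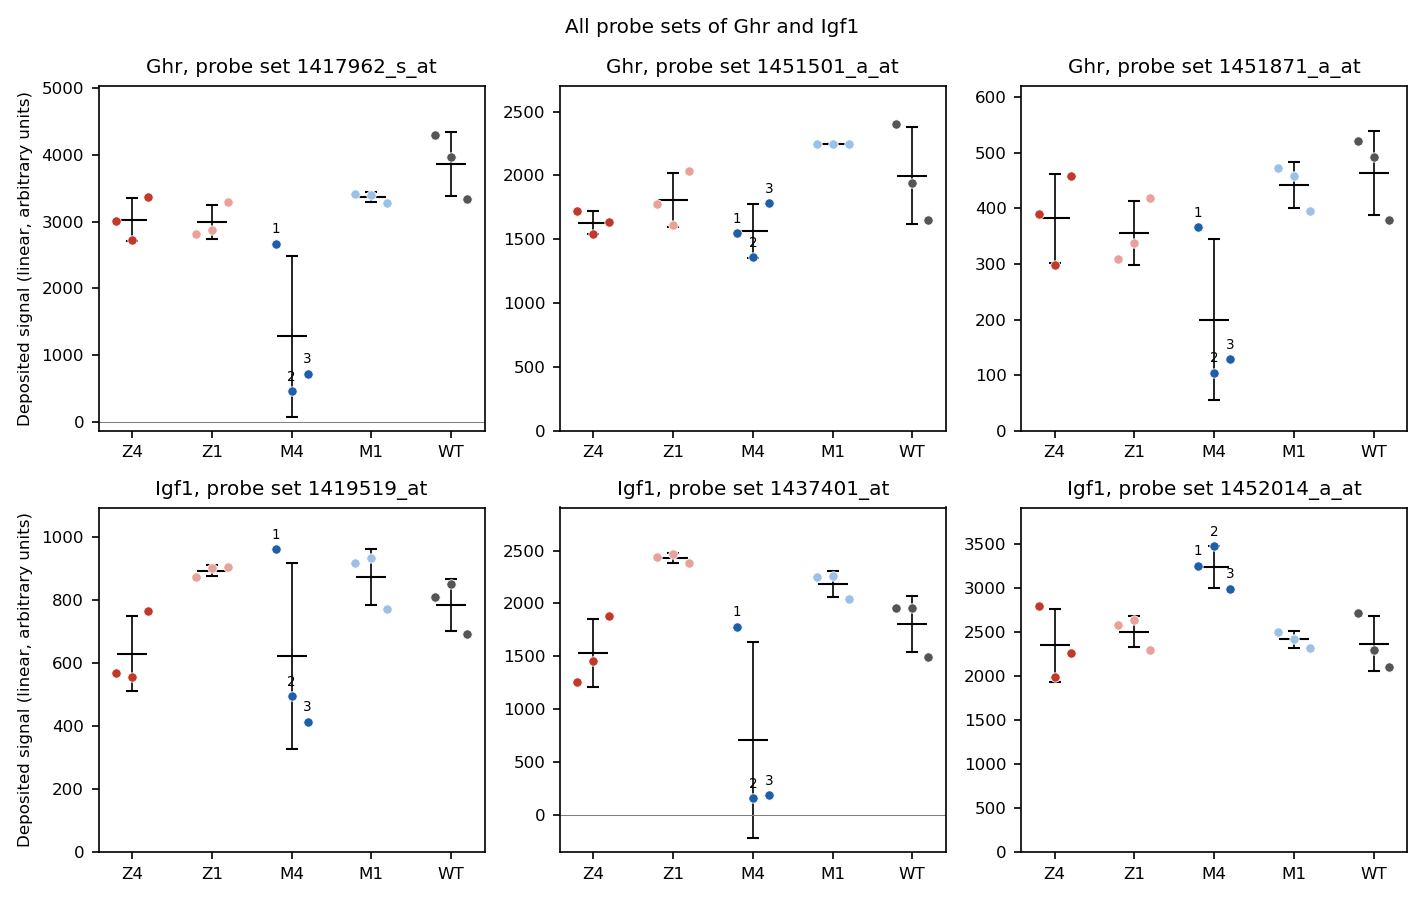
Deposited signal (linear, arbitrary units) of all 3 probe sets of Ghr (top) and of Igf1 (bottom) by group, with 1 point per array, the mean as a line and the SD as bars (n = 3 each). M4 2 and 3 are low on Ghr 1417962_s_at and 1451871_a_at and on Igf1 1437401_at, and high on Igf1 1452014_a_at.

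Socs2, which encodes an inhibitor of the receptor that STAT5 itself induces, was higher in M4 than in WT livers on 1 of its 2 probe sets and, within M4, lowest on M4 3. Its signal was 76.9, 67.3 and 119.9 in Z4 and 132.8, 57.2 and 94.4 in Z1. In M4 it was 250.7, 136.2 and 91.5, against 97.2, 96.4 and 64.7 in M1 and 70.3, 78.6 and 48.9 in WT. M4 1 was the highest of all 15 arrays and M4 3 lay among the M1 arrays. The log2 change was 1.01 in M4 minus WT (SE 0.32, adjusted p = 0.0355) and 0.70 in M4 minus M1, which was not called (SE 0.32, adjusted p = 0.0878). With M4 1 and 2 left out these were 0.41 and 0.09, neither called (adjusted p = 0.529 and 0.885 over all probe sets). With M4 2 and 3 left out they were 1.72 and 1.40, both called (adjusted p = 0.0171 and 0.0145). The call over WT ended without M4 1, M4 2 or any single WT array (adjusted p = 0.0509 to 0.128).

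The second Socs2 probe set, 1418507_s_at, differed from the first in both lines. In M4 it read 145.3, 103.5 and 40.8, against 89.1, 112.0 and 121.4 in M1 and 56.8, 102.6 and 67.0 in WT. Its groups overlapped, and it was not called in M4 minus WT (0.20, adjusted p = 0.765) or in M4 minus M1 (-0.25, adjusted p = 0.640). In the Z line it read 33.9, 28.8 and 64.4 in Z4, against 270.0, 80.5 and 128.1 in Z1, and fell by 1.49 (SE 0.40, adjusted p = 0.0110), with no overlap between the groups. The first probe set gave -0.06 in the same comparison (adjusted p = 0.895) and its groups overlapped. Both probe sets are annotated to Socs2 alone.

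Cish, the other STAT5-induced inhibitor, varied more within groups than between them. Its signal was 221.5, 98.3 and 132.7 in Z4, 36.6, 34.6 and 279.1 in Z1, 180.2, 491.7 and 231.3 in M4, 440.5, 435.5 and 49.3 in M1, and 89.4, 107.0 and 159.9 in WT. In Z1 and M1 a single array lay far from the other 2, above them in Z1 and below them in M1. Its 95% intervals ran from -0.81 to 2.38 in Z4 minus Z1 and from -1.30 to 1.89 in M4 minus M1, and it was called in none of the 9 comparisons.

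Igf1, the hormone gene of the axis, gave opposite answers on different probe sets. On the tested one, 1452014_a_at, the signal was 2805.6, 1994.8 and 2261.3 in Z4, 2579.6, 2638.4 and 2304.2 in Z1, and 3260.4, 3478.8 and 2998.4 in M4, against 2510.7, 2421.8 and 2327.5 in M1 and 2719.2, 2296.7 and 2103.2 in WT. All 3 M4 arrays lay above the other 12. The log2 change was 0.42 in M4 minus M1 (SE 0.14, adjusted p = 0.0256) and 0.45 in M4 minus WT (SE 0.14, adjusted p = 0.0340), and Z4 minus M4 was not called (-0.47, adjusted p = 0.0731). Relative to the median change of all genes the rise over M1 was 0.12. Leaving out M4 2, M1 2 or M1 3 ended the call over M1 (adjusted p = 0.0858, 0.0590 and 0.0730), and with each array centred on its median log2 signal the change was -0.044. With M4 1 and 2 left out it was 0.31 (adjusted p = 0.260), and with M4 2 and 3 left out 0.43 (adjusted p = 0.120). The call over WT ended without M4 1, M4 2, WT 2 or WT 3 (adjusted p = 0.0566 to 0.111) and with either M4 pair left out (0.34 and 0.46, adjusted p = 0.288 and 0.169).

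On 1437401_at, annotated to Igf1 alone as well, the signal was 1253.9, 1453.1 and 1884.5 in Z4, 2444.3, 2470.5 and 2383.2 in Z1, and 1780.2, 153.9 and 185.2 in M4, against 2249.7, 2258.3 and 2047.1 in M1 and 1961.5, 1957.8 and 1496.8 in WT. M4 2 and 3 were far below every other array, as they were for Ghr, while M4 1 lay within the WT range. The change was -2.48 in M4 minus M1 (SE 0.61, adjusted p = 0.00444) and -2.20 in M4 minus WT (SE 0.61, adjusted p = 0.0194). Without M4 2 and 3 it was -0.29 and -0.01, not called. The remaining probe set, 1419519_at, read 962.3, 495.7 and 414.3 in M4, against 917.2, 933.2 and 771.0 in M1, and was not called (-0.56, adjusted p = 0.0669). M4 2 and 3 thus read low on 2 Igf1 and 2 Ghr probe sets and high on the tested Igf1 probe set. Actin 3′ to 5′ signal ratios were 1.61, 1.43 and 1.29 on M4 1, 2 and 3, against 1.66 to 2.01 in M1. Genes outside the axis were low on M4 2 and 3 too. Malat1 read 73.7, 0.4 and 2.9 in M4, against at least 32.0 in the other groups. Apob read 1622.3, 571.8 and 482.2 in M4, against at least 1808.1 in the other groups. The part of RNA quality in these values was not tested.

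The spread of the M4 arrays also entered the Z line through the shared fit. On 1437401_at all Z4 arrays lay below all Z1 arrays, with a log2 change of -0.68 (SE 0.61, adjusted p = 0.410), and on 1419519_at Z4 read 568.7, 555.3 and 766.9, against 873.0, 903.1 and 906.7 in Z1 (-0.51, SE 0.24, adjusted p = 0.112). With M4 2 and 3 left out the same changes had SEs of 0.16 and 0.15 and were both called lower (adjusted p = 0.00509 and 0.0156). The tested Igf1 probe set gave -0.10 in Z4 minus Z1 in both fits, and Z4 overlapped WT on all 3 Igf1 probe sets.

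Igfals, which encodes the acid-labile subunit that keeps IGF1 in the blood, was higher in M4 than in every other group. Its signal was 354.0, 330.1 and 520.1 in Z4 and 290.1, 302.5 and 390.2 in Z1. In M4 it was 872.0, 745.6 and 750.0, against 256.5, 285.9 and 320.4 in M1 and 356.7, 385.4 and 417.2 in WT. All 3 M4 arrays lay above the other 12, including M4 3, and the M1 arrays lay below all Z4 and WT arrays. In order, M4 averaged 789 ± 71.7, Z4 401 ± 103, WT 386 ± 30.3, Z1 328 ± 54.6 and M1 288 ± 32.0 (SD, n = 3 each), and only M4 and Z4 among neighbours in this order did not overlap.

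The log2 change of Igfals was 1.41 in M4 minus M1 (SE 0.17, adjusted p = 2.77e-05), which is 1.11 relative to all genes, and 1.00 in M4 minus WT (SE 0.17, adjusted p = 0.00162). Both calls held under all 28 alternatives run, at 0.95 to 1.55 and 0.88 to 1.14. Igfals has a single probe set, so the alternative with second probe sets could not test these calls. In Z4 minus M4 the log2 change of Igfals was -0.97 (SE 0.17, adjusted p = 0.0117). That call ended in a fit of Z4 and M4 alone (adjusted p = 0.181). It also ended without M4 2 and 3, where the change was -1.12 with an SE of 0.25. In Z4 minus Z1 it was 0.26, not called (SE 0.17, adjusted p = 0.242). The difference between the 2 lines in the on minus off change was -1.14 (SE 0.24, adjusted p = 0.0530), just outside the threshold. Kupffer cell markers, 7 of 7 measured and none at 0, summed higher in M4 than in M1 and, unlike Igfals, overlapped WT. Their summed signal was 2314.3 to 2746.0 in M4, 1347.8 to 1405.1 in M1 and 1591.0 to 2679.5 in WT. Of them, 6 of 7 were called higher in M4 minus M1, where 38.1% of all genes were, and 1 of 7 in M4 minus WT, where 14.6% were. Endothelial markers, 5 of 5 measured and none at 0, summed to 847.9 to 1284.9 in M4, above the 602.0 to 692.0 of M1 and the 692.3 to 834.1 of WT, with 3 of 5 called higher in M4 minus M1 and 1 of 5 in M4 minus WT. The summed signal of 3 lymphocyte markers was 131.5 to 137.8 in M4, 15.4 to 39.4 in M1 and 74.0 to 83.4 in WT, with 3 of 3 called higher in M4 minus M1. In the Z line, where Igfals was not called, lymphocyte sums were 91.8 to 106.4 in Z4 and 25.5 to 31.7 in Z1. Endothelial sums were 783.8 to 867.1 and 539.0 to 709.3, and Kupffer sums overlapped, at 1142.1 to 1440.4 and 1076.3 to 1644.9. The part of these cells in the Igfals result was not tested.

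Only calls of Igfals, among those of the 10 genes, held in all 28 alternatives, though second probe sets did not apply to this gene. The sequence before its start is therefore shown. It was searched, with the other promoters, for the STAT motif TTCNNNGAA and the forkhead motifs CAAAACA and GTAAACA on both strands, and capitals mark the matches. The window is chr17:24877981-24878280 on the plus strand of GRCm38.p6, from RefSeq, covering 250 bases before to 50 after one of the annotated starts.
Igfals: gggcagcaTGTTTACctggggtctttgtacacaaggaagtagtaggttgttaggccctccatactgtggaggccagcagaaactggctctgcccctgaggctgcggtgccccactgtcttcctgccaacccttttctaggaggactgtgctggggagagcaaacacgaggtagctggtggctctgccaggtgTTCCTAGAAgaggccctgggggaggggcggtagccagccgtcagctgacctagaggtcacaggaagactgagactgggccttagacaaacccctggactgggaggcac
TTCCTAGAA begins 58 bases before that start, and TGTTTAC, the minus strand form of GTAAACA, 242 bases before it. In all, 15 windows of 9 of the 10 genes were in the table. TTCNNNGAA was in 3 of them, a pair for Igfals and 1 for Cish, and in 8.30% of all 32851 windows. GTAAACA was in 1 of the 15 and in 3.65% of all. The motifs do not overlap in these windows, and a match is a description of letters, not a binding site.

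Igfbp1, which encodes a binding protein that fasting raises and insulin lowers, had the widest range of the 10 genes as a ratio of its highest to its lowest signal. Its signal was 120.6, 120.5 and 538.9 in Z4, 794.4, 1018.9 and 93.2 in Z1, and 86.6, 110.3 and 44.7 in M4, against 8.1, 42.8 and 18.9 in M1 and 80.2, 162.1 and 327.6 in WT. The M1 arrays were all below all arrays of every other group, while Z1 held both the highest arrays and 1 array in the M4 range. The log2 change was -2.30 in M1 minus WT (SE 0.77, adjusted p = 0.0410), and that call held in 16 of 28 alternatives. It ended without any single M1 array, WT 2 or WT 3 (adjusted p = 0.0511 to 0.150), after quantile normalization (adjusted p = 0.0913) or centring (adjusted p = 0.0689), with an intensity trend (adjusted p = 0.0666), with either M4 pair left out (adjusted p = 0.0527) and with a constant of 64 (-1.44, adjusted p = 0.126). Z1 minus M1, a comparison in which both groups drank doxycycline, gave 3.62 (SE 0.77, adjusted p = 0.0972), not called. It was called without Z1 3 (4.64, adjusted p = 0.00855) and with array weights (3.70, adjusted p = 0.0202).

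The Igfbp1 promoter is shown for its single forkhead match, CAAAACA, which begins 108 bases before the start. The window is chr11:7197537-7197836 on the plus strand of GRCm38.p6, from RefSeq.
Igfbp1: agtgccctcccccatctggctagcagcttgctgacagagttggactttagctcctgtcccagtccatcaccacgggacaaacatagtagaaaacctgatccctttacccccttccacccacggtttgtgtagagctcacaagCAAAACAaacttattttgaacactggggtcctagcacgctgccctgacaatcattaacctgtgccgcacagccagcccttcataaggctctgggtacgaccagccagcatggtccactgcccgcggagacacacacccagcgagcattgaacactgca
CAAAACA was in 1 of the 15 windows and in 6.28% of all.

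Genes that insulin or FoxO factors control, to which Igfbp1 belongs, were called about as often as all genes. Of 12 measured, 3 were called higher and 2 lower in Z4 minus Z1, against 31.8% and 7.56% of all genes. Among them were Srebf1 (0.87, adjusted p = 0.00703), a lipogenic factor, and Pdk4 (-1.45, adjusted p = 0.0113), a kinase of the fasting response. In M4 minus M1, 5 were higher and 1 lower, against 38.1% and 12.5% of all genes, among them Sesn1 (1.08, adjusted p = 2.02e-04), a stress-induced FoxO target, and Trib1 (-0.90, adjusted p = 0.0188), a pseudokinase. Pck1, the gene of a gluconeogenic enzyme, was called higher in Z1 minus M1 (1.17, adjusted p = 0.0251), the comparison in which Igfbp1 had its widest difference.

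Igfbp2, a binding protein that hepatocytes secrete, read 2018.5, 1761.3 and 1920.9 in Z4, 1325.8, 1977.7 and 1641.8 in Z1, and 2245.1, 2178.0 and 1599.7 in M4, against 1371.3, 1552.5 and 1323.0 in M1 and 2087.5, 1631.1 and 2556.0 in WT. Every M4 array lay above every M1 array, M4 3 by a small margin. The log2 change in M4 minus M1 was 0.49 (SE 0.19, adjusted p = 0.0455), or 0.19 relative to all genes, and the call held in 12 of 28 alternatives. With M4 1 and 2 left out the change was 0.18 (adjusted p = 0.620), with M4 2 and 3 left out 0.66 (adjusted p = 0.0587), and with centred arrays 0.023 (adjusted p = 0.928). Over WT the change was -0.05 and the groups overlapped.

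Igfbp4, a binding protein that inhibits IGF action, differed by probe set. On 1423756_s_at, the tested one, it read 5270.7, 4849.5 and 5518.6 in Z4, 5306.7, 4826.7 and 4699.7 in Z1, and 5739.0, 5050.5 and 5165.7 in M4, against 4618.4, 4684.8 and 4904.8 in M1 and 5877.6, 5743.6 and 7004.6 in WT. WT arrays were above all others, and M1 minus WT was called lower (log2 change -0.38, SE 0.12, adjusted p = 0.0289). That call ended without any single M1 array or WT 3 (adjusted p = 0.0547 to 0.111), and after quantile normalization or centring (-0.23 and -0.036). On 1421991_a_at it read 1021.7, 864.6 and 882.6 in Z4, 659.6, 673.1 and 637.2 in Z1, and 1232.6, 1425.0 and 1222.4 in M4, against 669.1, 704.7 and 529.0 in M1 and 736.5, 602.3 and 649.2 in WT. There M4 lay highest, then Z4, and the remaining 3 groups overlapped.

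That probe set was called higher in Z4 minus Z1 (0.48, SE 0.14, adjusted p = 0.0141), M4 minus M1 (1.02, SE 0.14, adjusted p = 5.92e-05), Z4 minus WT (0.47, adjusted p = 0.0365) and M4 minus WT (0.95, adjusted p = 5.32e-04). Probe set 1421992_a_at read 3312.6, 2440.5 and 3085.0 in Z4, 2174.1, 2333.1 and 2092.3 in Z1, and 3143.0, 3310.0 and 3428.1 in M4, against 2238.0, 2094.5 and 1986.2 in M1 and 2117.9, 1922.0 and 2428.6 in WT. It was called in the same 4 comparisons, with log2 changes of 0.41, 0.64, 0.44 and 0.61 (adjusted p = 0.0300, 0.00165, 0.0468 and 0.00593). Both were the only member probe sets called higher in Z4 than in Z1 and than in WT, and the other 4 Igfbp4 probe sets were called in neither on minus off comparison. With M4 1 and 2 left out 1421991_a_at was still called in M4 minus M1 (0.94, adjusted p = 0.00300), as it was with M4 2 and 3 left out (0.95, adjusted p = 0.00319). With M4 2 and 3 left out 1421992_a_at was no longer called in M4 minus WT (0.55, adjusted p = 0.0985).

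**Figure D3:**
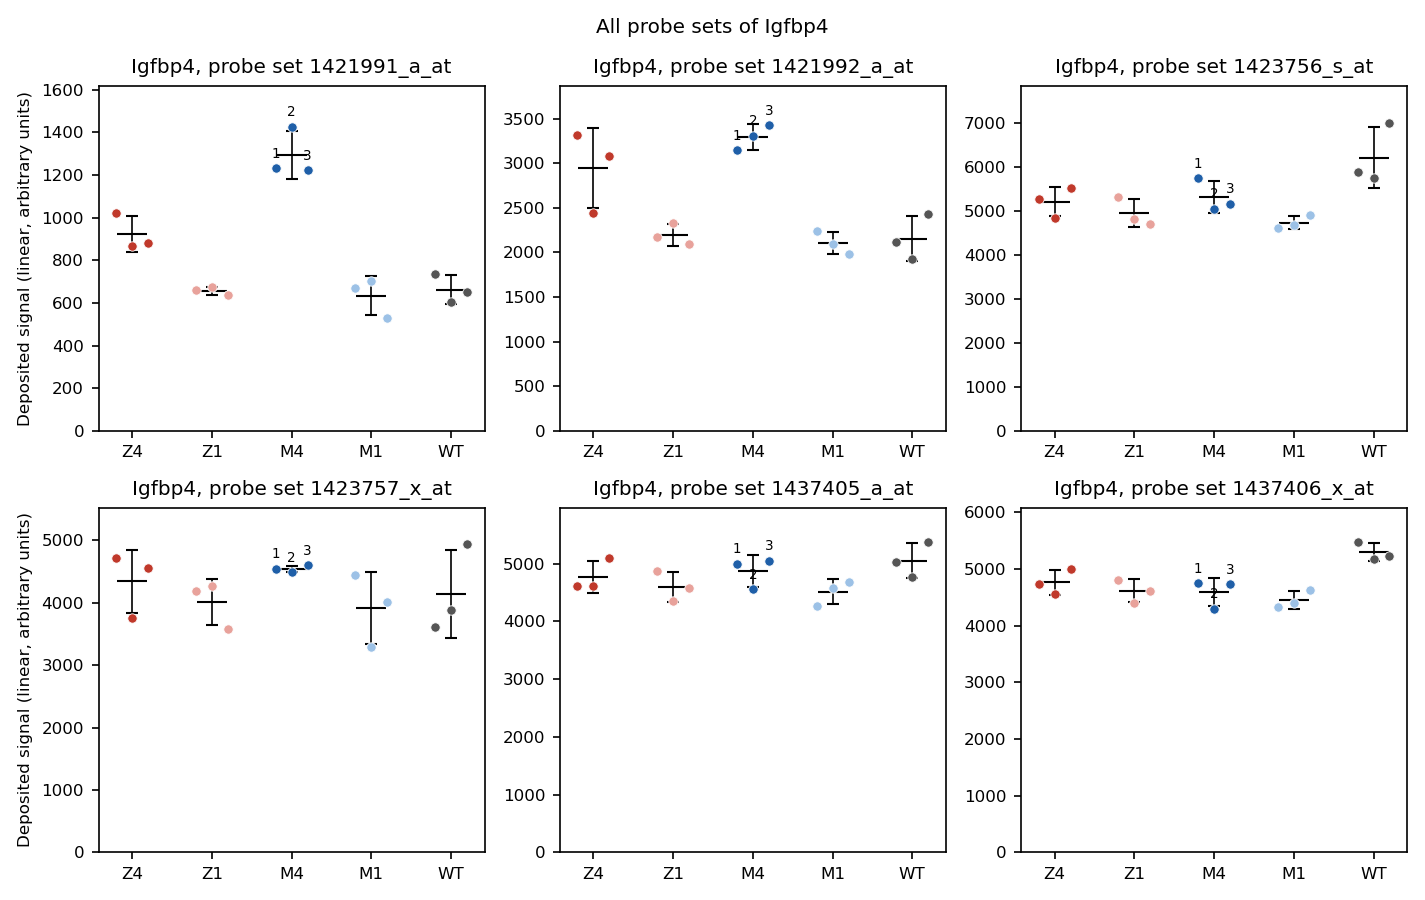
Deposited signal (linear, arbitrary units) of the 6 probe sets of Igfbp4 by group, with 1 point per array, the mean as a line and the SD as bars (n = 3 each). On 1421991_a_at and 1421992_a_at all Z4 and M4 arrays lie above all Z1, M1 and WT arrays, while on the other 4 the groups overlap or WT is highest.

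Set against all genes, the number of members called was low in the Z line and near the background in the M line. In Z4 minus Z1, 0 of 10 members were called, at an unadjusted p under 0.05 also 0, against 39.3% of all genes. Their median log2 change was -0.01, against 0.25 for all genes. In M4 minus M1, 4 of 10 were called, against 50.5% of all genes. Igfals, Igfbp2 and Igf1 were higher (38.1% of all genes) and Ghr lower (12.5%).

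Z4 minus M4 had calls for Ghr, higher, and Igfals, lower, against 5.16% of all genes, and both ended in some alternatives, as described. Without M4 2 and 3 the Ghr change was 0.18, while that of Igfals was -1.12. Against WT, Z4 had 0 of 10 called (12.3% of all genes) and 0 at an unadjusted p under 0.05, and M4 had 4 of 10 (24.1%), with Igfals, Socs2 and Igf1 higher (14.6%) and Ghr lower (9.48%). Z1 had Stat5b higher than WT (24.4% of all genes called, 4.09% higher), and M1 had Igfbp1 and Igfbp4 lower (26.4% called, 22.4% lower). Z1 minus M1 had 0 of 10 (0.129%), with 1 at an unadjusted p under 0.05. The difference between the lines in the on minus off change had 0 of 10 (0.613%), with 4 at an unadjusted p under 0.05, and the comparisons share arrays.

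Over all probe sets, 4 of the 22 were called in Z4 minus Z1 (36.2% of all probe sets), 10 in M4 minus M1 (46.6%), 2 in Z4 minus WT (12.5%) and 10 in M4 minus WT (23.2%). In M4 minus WT the called probe sets were 7 higher, from Stat5a, Stat5b, Socs2, Igf1, Igfals and a pair from Igfbp4, and 3 lower, from Ghr and Igf1. For Igf1 the direction in M4 differed between probe sets, while all 3 Ghr probe sets were lower in M4 than in M1, by unequal amounts.

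**Figure D4:**
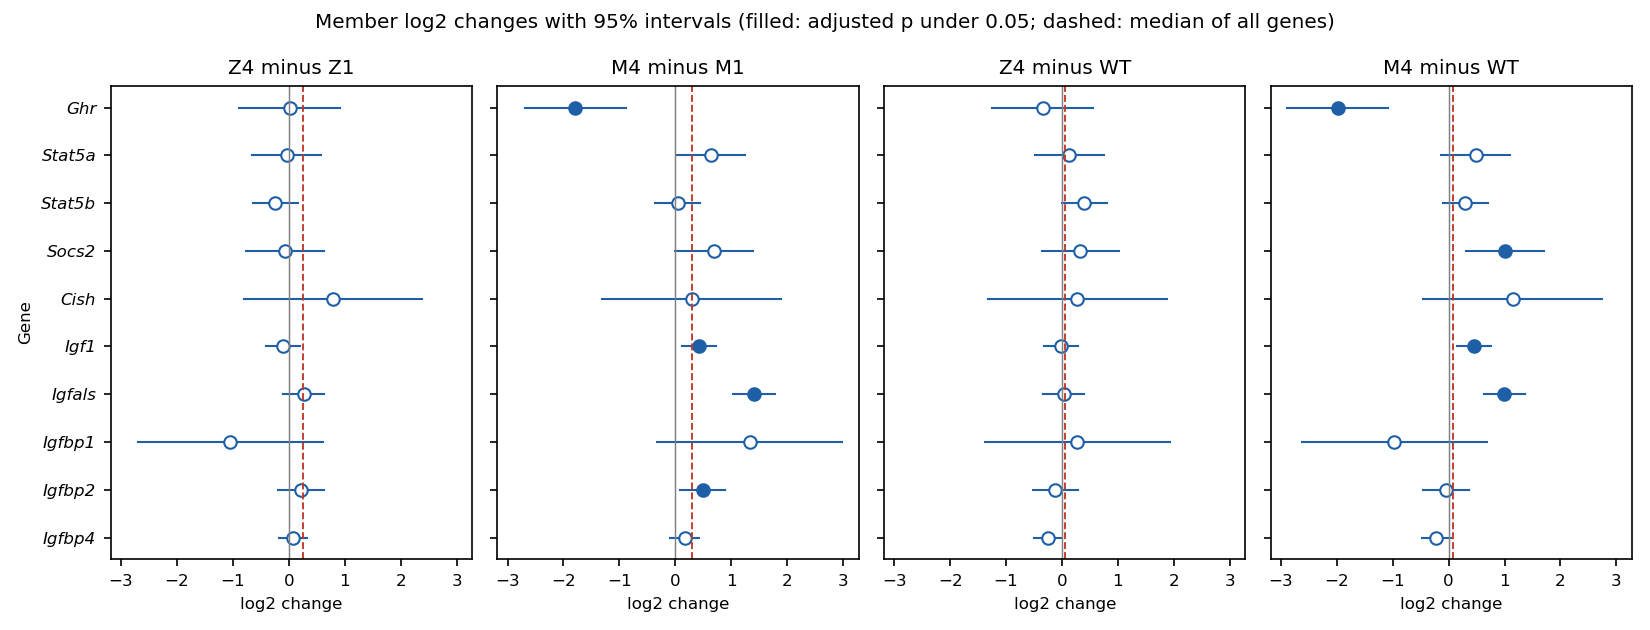
Log2 change with its 95% interval for the tested probe set of each of the 10 genes in 4 comparisons (x axis, log2 units). Filled points were called, and the dashed line is the median of all genes, 0.25 in Z4 minus Z1 and 0.29 in M4 minus M1. No point is filled in Z4 minus Z1 or Z4 minus WT.

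Among proteins that act at the receptor with JAK2, 13 of 15 listed genes were measured. In Z4 minus Z1, 2 were higher, the adaptor Shc1 (0.74, adjusted p = 9.27e-04) and the inhibitor Socs1 (1.07, adjusted p = 0.0292), and in M4 minus M1, 4 were higher and 1 lower. Shc1 read 292.7, 322.0 and 288.6 in Z4, 142.1, 194.7 and 188.3 in Z1, and 317.7, 312.7 and 374.4 in M4, against 166.3, 159.3 and 168.3 in M1 and 204.4, 185.8 and 236.0 in WT. Both on groups lay above the other 9 arrays, and Shc1 was called in Z4 minus WT (0.50, adjusted p = 0.0293) and M4 minus WT (0.64, adjusted p = 0.00519). Ptpn1, a phosphatase of receptor kinases, was the other gene called in both (0.47, adjusted p = 0.0271, and 0.57, adjusted p = 0.00641). Of all genes, 7.55% and 14.6% were called higher in these comparisons. Jak2 itself was not called in any of the 9 comparisons. The list's medians were 0.14 and 0.30 in the on minus off comparisons, against 0.25 and 0.29 for all genes.

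Other IGF ligands, receptors, binding proteins and proteases had 16 of 18 genes measured. Of these, 10 were called higher and 0 lower in Z4 minus Z1 (31.8% of all genes called higher). Their median was 0.73, against 0.25 for all genes. In M4 minus M1, 10 were higher and 0 lower (38.1% of all genes called higher), with a median of 0.80 against 0.29. After quantile normalization those counts were 3 higher and 0 lower in the Z line and 4 higher and 1 lower in the M line. Of all 12393 genes, 1962 and 2930 were then called higher. Centred arrays gave 6 higher and 2 lower in the Z line and 4 higher and 3 lower in the M line. With centring 1454 and 2061 of all genes were called higher, and 3504 and 3839 lower. The number of these genes called thus depended on the scaling. With M4 1 and 2 left out the M line had 5 higher and 1 lower, and with M4 2 and 3 left out 6 higher. Against WT, 1 of 16 was higher in Z4 and 2 of 16 in M4, where 7.55% and 14.6% of all genes were.

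Igf2r, the receptor that clears IGF2 and carries lysosomal enzymes, was higher in both on groups than in all others. Its signal was 222.9, 232.0 and 237.7 in Z4, 94.0, 109.9 and 81.7 in Z1, and 209.1, 190.9 and 187.1 in M4, against 90.4, 85.8 and 91.0 in M1 and 92.8, 81.5 and 84.5 in WT. All 6 on arrays lay above the other 9. The log2 change was 1.16 in Z4 minus Z1 (SE 0.12, adjusted p = 1.69e-05), 1.01 in M4 minus M1 (SE 0.12, adjusted p = 1.95e-05), 1.27 in Z4 minus WT (adjusted p = 9.08e-05) and 1.05 in M4 minus WT (adjusted p = 1.77e-04). Relative to all genes the on minus off changes were 0.91 and 0.71.

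Insr, the insulin receptor, read 73.6, 66.0 and 78.5 in Z4, 8.0, 17.9 and 2.0 in Z1, and 75.1, 75.4 and 70.8 in M4, against 7.6, 14 and 4.1 in M1 and 41.3, 43.6 and 46.1 in WT. The arrays of both on groups lay above WT and those of both off groups below it, with calls in M4 minus WT (0.59, adjusted p = 0.0427), Z1 minus WT (-1.29) and M1 minus WT (-1.30) but not in Z4 minus WT (0.57, adjusted p = 0.0745). The changes of 1.86 and 1.89 in the on minus off comparisons (adjusted p = 2.02e-05 and 9.27e-06) depended in size on the added constant, as the off signals lay near or below it. Igf2, a fetal ligand, and Stc1, an inhibitor of a protease that cleaves Igfbp4, were low too, at 1.1 to 19.4 and 0.8 to 15 in the off groups. Igfbp3, the main carrier of IGF1 in blood, was higher than WT in Z1 (1.18, adjusted p = 0.0402) and M1 (1.11, adjusted p = 0.0482), and called in neither on group.

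Genes whose liver level growth hormone sets differently in the sexes moved in M4 with the arrays. The summed signal of 14 female-type genes was 13089.9, 16085.4 and 1481.6 in M4, against 1491.2 to 1574.5 in M1 and 1927.4 to 3974.1 in WT, and that of 12 male-type genes was 6186.1, 4996.2 and 26572.6, against 25815.6 to 30310.0 in M1 and 27447.0 to 31973.0 in WT. M4 1 and 2 were high in the first sum and low in the second, and M4 3 lay near the M1 arrays in both. Single male-type genes on M4 3 lay on both sides of M1. Slco1a1 read 509.3, against at least 1214.3 in M1, Gstp1 6834.5, against at least 8228.0, and Bcl6 38.7, against at least 90.0. Hsd3b5, Cyp7b1 and Keg1 lay above all M1 arrays there. Of the 14 female-type genes 10 were called higher in M4 minus M1, against 38.1% of all genes. Of the 12 male-type genes 9 were called lower, against 12.5% of all genes. Both counts include M4 1 and 2.

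In Z4 the corresponding sums were 1328.1 to 2418.8 and 17374.7 to 20457.2, against 2048.3 to 2626.4 and 23894.8 to 27681.7 in Z1. Much of the female-type sum was 1 gene, Hamp2, at 1274.5, 1045.2 and 642.9 in Z4 and 1982.9, 1731.6 and 1739.4 in Z1. The median log2 change of the female-type genes was 0.60 in Z4 minus Z1, against 0.25 for all genes. The male-type sum was lower on every Z4 array than on every Z1 and WT array. Much of that sum was Gstp1, at 5528.3 to 5991.4 in Z4, 8346.3 to 9670.1 in Z1 and 10462.9 to 13264.1 in WT. In Z4 minus WT, 1 of the 12 male-type genes was called lower, against 4.74% of all genes. Among single genes in Z4 minus Z1, 1 male-type gene was higher, Susd4 (1.84, adjusted p = 0.00236). Another 2 were lower, Elovl3 (-2.16, adjusted p = 0.0241), an elongase of fatty acids, and Ugt2b38 (-1.43, adjusted p = 0.0443). Elovl3 read 580.4, 1071.1 and 352.4 in Z4, 2286.9 to 3280.9 in Z1 and 1825.1 to 2857.4 in M1. Its Z4 arrays overlapped WT, at 321.1 to 556.9, and both off groups lay above WT. Also in Z4 minus Z1, 2 female-type genes were higher, Lepr (1.00, adjusted p = 8.66e-05), the leptin receptor, and Tox (0.92, adjusted p = 0.00268). These counts are out of 12 male-type and 14 female-type genes, where 31.8% of all genes were called higher and 7.56% lower. Female-type Cyp2b9 read 172.9, 170.9 and 127.2 in Z4, against 9.1 to 33.7 in Z1 and 10.6 to 22.0 in WT. It was not called in Z4 minus Z1 or Z4 minus WT, and the shared fit included its M4 signals of 1984.2, 2470.3 and 29.1. Cyp2b13, at 36.8 to 68.3 in Z4, 1.1 to 7.6 in Z1 and 5.2 to 19.4 in WT, was not called either. Hamp2 and Cyp3a44 were lower on every Z4 than on every Z1 array.

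Among the members, Socs2 was lowest on M4 3 within M4, as the female-type sum was, whereas Igfals was high on M4 3 too. The 2 ways in which M4 arrays stood apart crossed, since M4 2 read female-type and was low for Ghr, M4 1 read female-type without that low Ghr signal, and M4 3 was low for Ghr with sums of sex-differing genes near those of M1. With M4 1 and 2 left out, 1 M4 array remained and was assumed to vary as the other groups do, and Igfals was still called in M4 minus M1 (1.34) and in M4 minus WT (0.93).

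**Figure D5:**
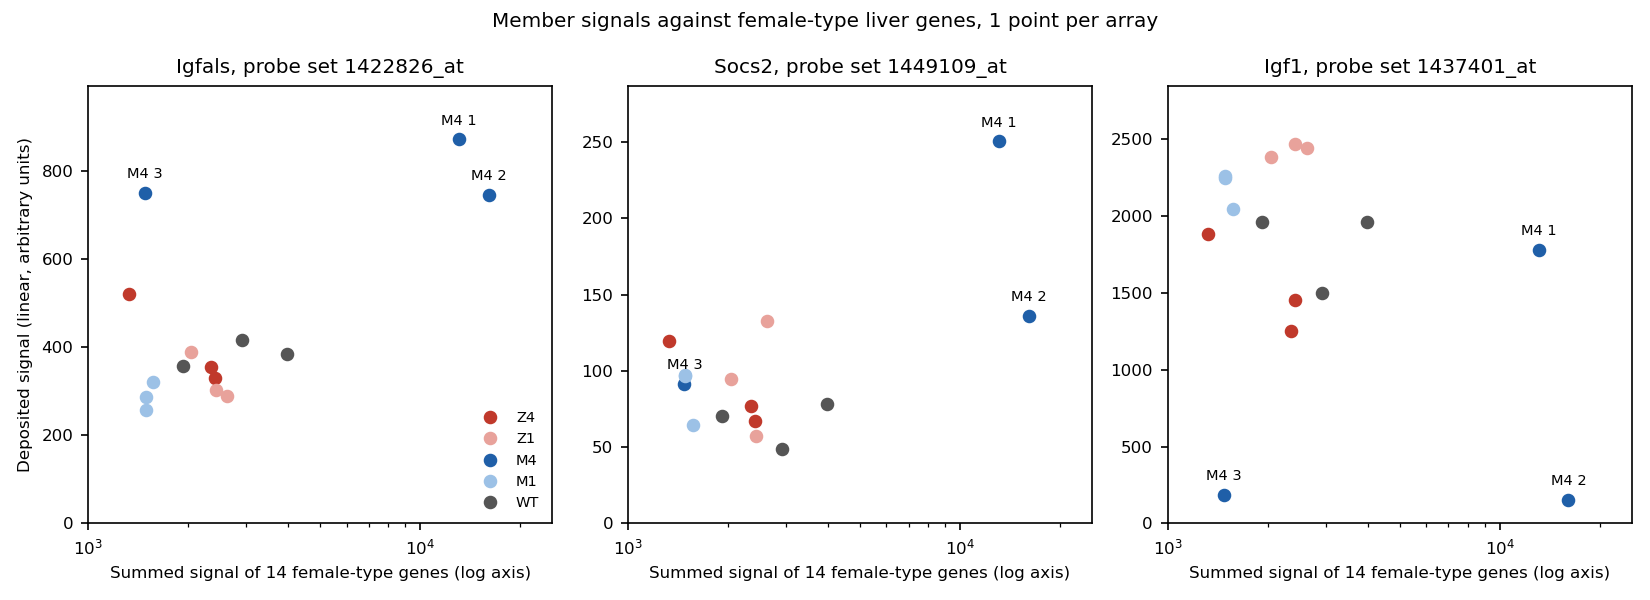
Deposited signal (linear, arbitrary units) of Igfals, Socs2 and Igf1 probe set 1437401_at against the summed signal of 14 female-type genes (log axis), with 1 point per array and groups by colour. M4 1 and 2 lie far right, and M4 3 lies left with a high Igfals and a low Igf1 signal.

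The genes most like 4 of the members over the 15 arrays were ranked by Pearson correlation of log2 signals, as a description in which arrays share group and scaling. For Socs2 they were Sult3a1 (0.794), Eif4e3 (0.773) and Fam126a (0.760), and for Igfbp1 they were Tff3 (0.869), Kdm3a (0.816) and Fhl3 (0.789). For Igf1 they were Olfr68 (0.849), 5031439G07Rik (0.822) and Ess2 (0.818), and for Igfbp2 they were Hpca (0.893), Tc2n (0.879) and Bub1 (0.879).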

How the data were processed

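The authors deposited probe set intensity values for 15 arrays of total liver RNA, extracted with TRIZOL and RNeasy per the labels' protocols. RMA, with no version, is the only tool in the submitters' processing notes. The deposited intensity values were linear, from 0 to 22995.4, with a 2% trimmed mean near 150.1 on every array, and how they were scaled is not stated in the labels or the file.

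Of 22690 probe sets, 20380 were annotated to 1 gene, and the brightest of each gene over all arrays was tested, for 12393 genes. After adding 16 and taking log2, limma fitted all 15 arrays with a separate mean for each group (limma 3.58.1, R 4.3.3, 10 residual and 3.88 prior degrees of freedom). The 9 two-sided contrasts were adjusted by Benjamini-Hochberg over all genes, and a second fit used all probe sets. The fit was tested on simulated data.

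Every member was described. Of each other list, up to 4 called genes with the smallest adjusted p in a contrast could be named, and for 4 members the 3 genes of highest correlation. The labels state no statistical design. Members, lists, tests and the constant were chosen with earlier results of these data known, among them that M4 1 and 2 read female-type. Alternatives were other constants, scalings, filters, fits and arrays left out, and the second brightest probe set of each member was added after seeing the data. Cish, Igfals, Igfbp1 and Igfbp2 have a single probe set each, which that alternative read again. Plots used matplotlib 3.10.9 (Python 3.11.15).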

Additional observations from a re-analysis of the deposited data

How the results depend on the processing

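Of 2520 member changes over all alternatives, 89 lost a call and 49 gained one. The sign changed in 85, of which 4 had a call before or after. Those 4 were Igfbp4 in Z4 minus Z1 (-0.38) and Igf1 in M4 minus M1 (-0.044) with centred arrays, and Igf1 on its second probe set in M4 minus M1 (-2.48) and M4 minus WT (-2.20). The cause was not tested. Members called in Z4 minus Z1 (0) were 1 after quantile normalization, 3 with centred arrays and 2 with second probe sets (26.2%, 40% and 39.4% of all genes). In M4 minus M1 (4) they were 2 with centred arrays, without M4 1 and 2, and without M4 2 and 3. In Z4 minus M4 (2) they were 1 with a constant of 1 or second probe sets, and 0 with only those groups or without M4 2 and 3. In Z4 minus WT (0) centring gave 1 (11.3% of all genes). In M4 minus WT (4) they were 2 with a constant of 1 or either M4 pair left out, and 1 with only those groups. In Z1 minus WT (1) they were 2 with a constant of 64 or an intensity trend (23% and 24.5% of all genes), and 0 with only those groups (20.6%). In M1 minus WT (2) they were 0 after quantile normalization and 1 with centred arrays, only those groups or second probe sets. Z1 minus M1 (0) gave 1 with array weights, where 1.85% of all genes were called. The difference between lines (0) gave 1 with a constant of 64, centring, genes above the 40th percentile or a trend, and 2 with array weights. Of all genes, 1.05%, 0.71%, 1.47%, 0.726% and 9.33% were called in these settings, in that order. Leaving out each array in turn gave 0 to 1 in Z4 minus Z1, 2 to 5 in M4 minus M1, 1 to 2 in Z4 minus M4, 0 in Z4 minus WT, 2 to 4 in M4 minus WT, 0 to 2 in Z1 minus WT, 0 to 3 in M1 minus WT, 0 to 1 in Z1 minus M1 and 0 to 2 in the difference between lines. In the difference between lines, these fits without an array called 0.0161% to 8.25% of all genes, the most without M4 1. With the replicate number as a block the count was 1 in M1 minus WT and within 1.5 times of the count without it elsewhere. Same-numbered arrays did not deviate together over all genes (correlations -0.171 to 0.0662). A weak pairing by number, or one in few genes, would not show in these correlations. Scaling moved all genes: in Z4 minus Z1, 3939 higher and 937 lower became 1962 and 1285 after quantile normalization and 1454 and 3504 with centred arrays, and in M4 minus M1, 4720 and 1543 became 2930 and 1906, and 2061 and 3839. Signals near 16 limit how far low genes can be read.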
